A study of Xenopus laevis with 9 samples.

Results

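Genes of the hypothalamic, pituitary and optic fields, 5 for transcription factors and 1 for an opsin, are described here in 3 neighbouring tissues of the head of Xenopus laevis, the African clawed frog. They are hesx1.L, six3.L, six6.L, nkx2-1.L, vsx1.L and rgr.S, taken as every probe set that the platform annotation gives one of these symbols alone. Each has 1 probe set on the Affymetrix array, which makes 6 of the 7531 distinct symbols that stand alone on a probe set. The tissues came from embryos at stage 26, a tailbud stage, with no treatment or genotype named in the labels. One was the primary mouth, the site of the first opening between outside and foregut. The others were anterior dorsal tissue and ventral tissue, the ventral samples including the mucus-secreting cement gland. Each tissue has 3 samples, numbered 1a, 2 and 3 for primary mouth and 1, 2 and 3 for the others, and each sample pooled 75 to 100 embryos and went to its own array. Whether the 3 samples of a tissue were taken from different clutches is not stated, so the p-values reflect just the spread among these samples, which may be technical.

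As background, the front of the vertebrate neural plate is patterned by homeodomain proteins that act before its parts are separate. Six3 and Six6 mark the anterior neural plate and eye field and are later found in retina, hypothalamus and pituitary. Hesx1 (called Xanf in frogs) is a repressor of the anterior neural border that is required for the forebrain and the pituitary in mice, and the pituitary primordium arises from ectoderm next to the oral opening. Nkx2-1 marks the ventral forebrain that becomes hypothalamus, and also thyroid and lung. Vsx1 is a paired-like homeodomain protein known from retinal interneurons, and Rgr is a retinal opsin of pigment epithelium and glia that isomerises retinal. The .L and .S endings are the 2 copies of a gene in this allotetraploid frog, and a probe set may detect both.

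Signals are linear MAS5 units as deposited, with a 2% trimmed mean of 150 on every array. The labels name no batch. Beta-actin control probe sets separated the arrays into 2 groups, called batches here, which hold all 3 tissues but unevenly. The 3' to 5' signal ratio of these control probe sets was 5.48 to 11.2 on 4 arrays (primary mouth 1a and 2, anterior dorsal 1, ventral 1) and 1.46 to 2.03 on the other 5. What set the ratio apart between these arrays was not tested. The first of these batches is therefore called the high-ratio batch and the second the low-ratio batch, and changes within each are given for the 6 genes. Within a batch some tissues have 1 array, which is assumed to vary like the others. Detection calls were not analysed here. As a guide to the bottom of the scale, the control probe set for the jellyfish reporter EGFP read 9.66 to 53.9 over the 9 arrays, and those for 2 red reporters 0.524 to 7.53. The 53.9 came from primary mouth 2, and EGFP on the other arrays read at most 32.4. The range of the reporter controls is taken over all arrays. Signals in this range were not read as expression or absence. A fold change against a tissue in this range is a fitted value whose size depends on the constant added before taking logs, and is no measured ratio. The labelled tissues differed in their marker lists. Summed signals of 14 forebrain and neural tube genes were 1129 to 1404 in primary mouth, 6469 to 6728 in anterior dorsal tissue and 487 to 669 in ventral. Those of 6 cement gland genes were 5443 to 8908 in primary mouth, 2976 to 3927 in anterior dorsal tissue and 16968 to 23371 in ventral. The copies of ag1 and agr2, with ventral means of 3204 to 7317, made up most of the cement gland sums. The list's other genes were not highest in ventral tissue. Signals of pitx1.L averaged 213 in primary mouth and 143 in ventral, and those of cpe.L 66.9 in anterior dorsal tissue and 21.3 in ventral.

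**Figure D1:**
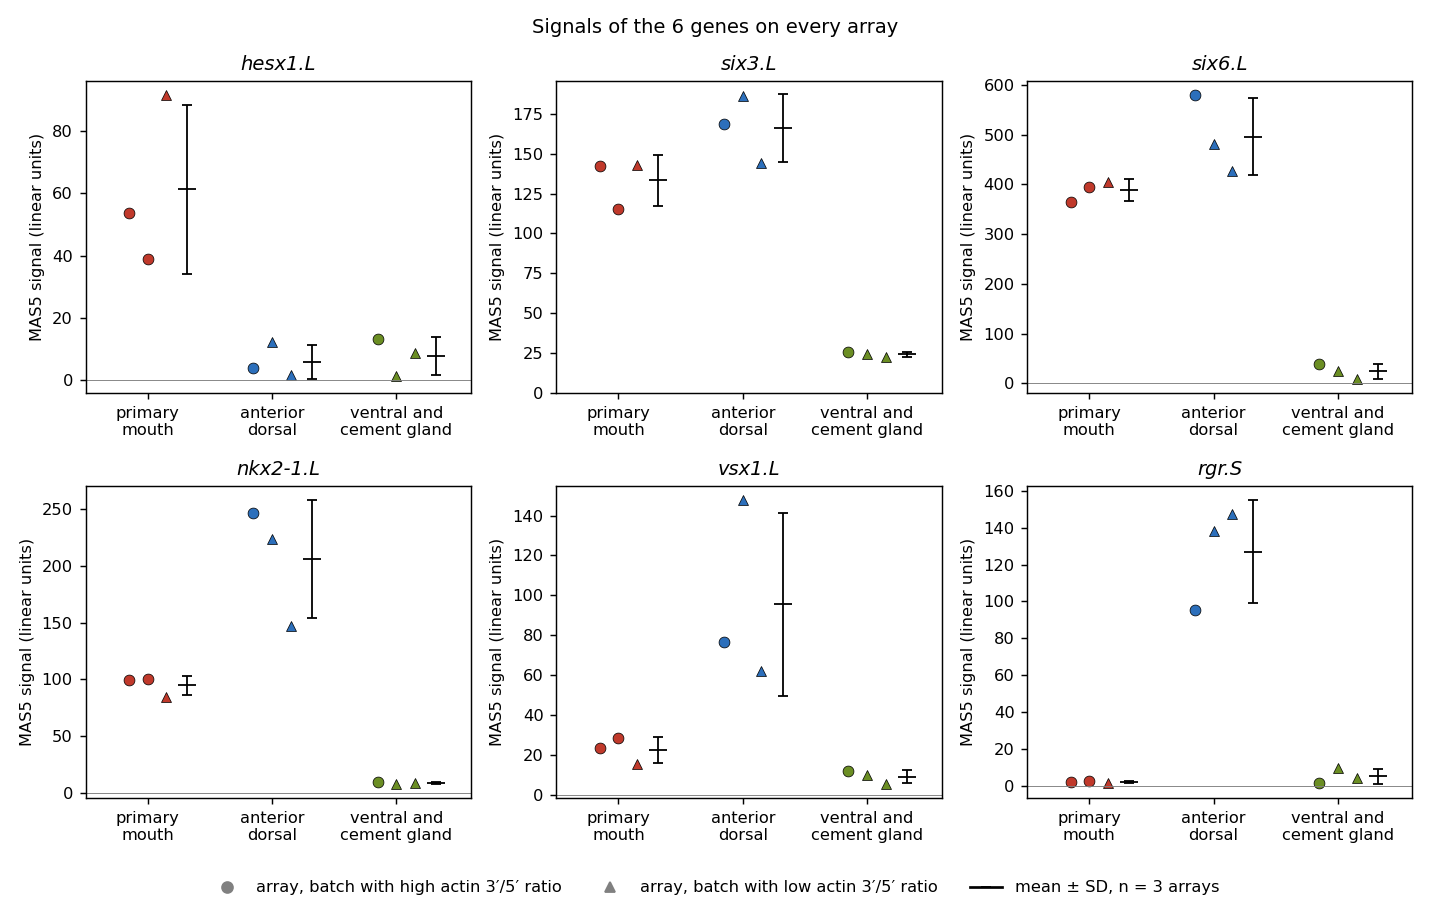
MAS5 signal (linear units) of each of the 6 genes on every array, in primary mouth, anterior dorsal and ventral tissue. Circles and triangles are arrays of the high-ratio and low-ratio batch, and bars give the mean ± SD (n = 3). Only the hesx1.L panel has its highest points in primary mouth (38.8 to 91.4), six3.L and six6.L are high in both primary mouth and anterior dorsal tissue, and rgr.S is high in anterior dorsal tissue alone.

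The repressor gene hesx1.L (gene ID 397950) was highest in primary mouth. Its signal was 53.7, 38.8 and 91.4 on the primary mouth arrays 1a, 2 and 3, against 4.07, 12.2 and 1.70 in anterior dorsal tissue and 13.3, 1.27 and 8.69 in ventral tissue. Every primary mouth array lay above all 6 others, and the flanking tissues overlapped. Within their own arrays the primary mouth signals stood at the 43.2nd to 62.2nd percentile of all probe sets, so this was a gene of middling signal even where it was highest. On primary mouth 2 the EGFP control, at 53.9, read above hesx1.L, whereas on 1a and 3 it read 10.8 and 21.8. Taken over all arrays, the EGFP range covers the hesx1.L signals of both primary mouth 1a and 2. The log2 fold change, on the log2(signal + 16) scale used throughout, was 1.79 ± 0.27 (SE) over anterior dorsal tissue and 1.68 ± 0.27 over ventral tissue (limma adjusted p = 0.00102 and 0.00141). With 1 added in place of 16 the same changes were 3.37 and 3.11. Of all 10011 probe sets tested, 1.16% were called higher in primary mouth over both flanking tissues. The difference between the flanking tissues, anterior dorsal over ventral, was -0.11 with a 95% interval of -0.70 to 0.49 (adjusted p = 0.829).

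The hesx1.L differences kept their direction in both batches. Over anterior dorsal tissue the log2 fold change was 1.62 in the high-ratio batch and 2.27 in the low-ratio batch, and over ventral tissue it was 1.08 and 2.38. Anterior dorsal over ventral tissue, which passed in neither, was -0.545 and 0.11. The highest primary mouth signal, 91.4, came from the only primary mouth array of the low-ratio batch. Leaving out that array gave 1.52 over anterior dorsal and 1.41 over ventral tissue.

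The genes six3.L and six6.L were high in primary mouth as well as in anterior dorsal tissue and low in ventral tissue. The signal of six3.L (gene ID 373739) was 142, 115 and 143 in primary mouth, 168, 186 and 144 on the anterior dorsal arrays and 25.7, 24.3 and 22.5 on the ventral arrays. Primary mouth and anterior dorsal arrays came within about 1 unit of each other without overlapping, while the ventral arrays lay far below both, in the range of the reporter controls. On their own arrays EGFP read 9.66 and 20.6 on ventral 1 and 2, below six3.L there, and 23.9 on ventral 3, above it. Primary mouth over anterior dorsal gave a log2 fold change of -0.29 (95% interval -0.64 to 0.07, limma adjusted p = 0.330), a difference that did not pass the threshold in a comparison where 9.56% of probe sets did. Against ventral tissue, six3.L was higher by 1.89 ± 0.16 (SE) in primary mouth and by 2.18 ± 0.16 in the anterior dorsal samples (adjusted p = 1.27e-05 and 1.51e-06). Of all probe sets 4.42% were called higher in the first of these comparisons and 10.5% in the second. Among the 10011 tested, 8.24% had every primary mouth and anterior dorsal array above all ventral arrays, as had six3.L, six6.L, nkx2-1.L and vsx1.L. The share over all probe sets for other separations of arrays is not given here.

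The closely related six6.L (gene ID 398128) had the same order with a wider range. It read 365, 396 and 406 in primary mouth, 579, 482 and 427 on the anterior dorsal arrays and 38.9, 25.6 and 9.20 on the ventral arrays. The arrays of the 3 tissues did not overlap, and the ventral arrays were the most spread in proportion to their level, with the array of the high-ratio batch highest. All 3 ventral signals were in the range of the reporter controls taken over all arrays. On ventral 1 and 2, however, EGFP read 9.66 and 20.6, below six6.L there, and on ventral 3 it read 23.9, above six6.L. The change in primary mouth over anterior dorsal tissue was -0.33 (95% interval -0.87 to 0.21, adjusted p = 0.474). Primary mouth over ventral was 3.39 ± 0.25 (adjusted p = 4.00e-06), and anterior dorsal over ventral was 3.72 ± 0.25 (adjusted p = 6.22e-07).

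Batch did not turn any of the six3.L and six6.L differences. For six3.L, primary mouth over ventral was 1.79 in the high-ratio batch and 2.01 in the low-ratio batch, and anterior dorsal over ventral 2.15 and 2.19. For six6.L the same pairs were 2.85 and 3.70, and 3.44 and 3.86. The small differences between primary mouth and anterior dorsal tissue were negative in both batches, at -0.36 and -0.18 for six3.L and -0.59 and -0.16 for six6.L.

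Most tested genes of the forebrain and neural tube list, which is not confined to the forebrain, were lower in primary mouth samples than anterior dorsal ones. Of 13 tested genes of the forebrain and neural tube list 12 fell and 0 rose by limma (13 and 0 at an unadjusted p under 0.05), where 4.87% of all probe sets fell and 4.68% rose, with a median log2 fold change of -2.38 beside -0.01 over all probe sets. The eye and forebrain regulator pax6.L averaged 84.0 in primary mouth, 517 in anterior dorsal tissue and 21.6 in ventral. The telencephalic T-box gene eomes.L averaged 7.42 in primary mouth, 230.2 in anterior dorsal tissue and 5.31 in ventral. A gene this low elsewhere could enter the tests only through its anterior dorsal arrays. Against ventral tissue, primary mouth had 7 of the 13 genes higher, 0 lower and 6 that did not pass, with a median of 0.66. Over all probe sets 4.42% were higher and 10.1% lower in that comparison, with a median of 0.06. Neither of the 2 counts is read as support. Both copies of prph and of ncam1 are among the 13. In pooled tissue of this kind, fewer cells of a type and less RNA per cell cannot be told apart. The part that the amount of neural tissue in each piece plays in the signals of the 6 genes was not tested.

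The ventral forebrain gene nkx2-1.L (gene ID 373626) was graded over the 3 tissues. Its signal was 99.2, 100.3 and 85.0 in primary mouth, 246, 223 and 147 on the anterior dorsal arrays and 9.71, 8.57 and 8.90 on the ventral arrays. No tissue overlapped another, the ventral arrays lay within about 1 unit of each other, and all 3 ventral signals were in the range of the reporter controls. In primary mouth over anterior dorsal tissue nkx2-1.L was lower, at -0.97 ± 0.19 (SE, limma adjusted p = 0.00556). Primary mouth over ventral was 2.14 ± 0.19 (adjusted p = 1.66e-05), and anterior dorsal over ventral was 3.12 ± 0.19 (adjusted p = 3.66e-07). With 1 added in place of 16 they were 3.25 and 4.33.

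Of the nkx2-1.L differences, that between primary mouth and anterior dorsal tissue lost its call in 1 batch. It was -1.18 in the high-ratio batch and -0.97 in the low-ratio batch, where 1 primary mouth array faced 2 anterior dorsal arrays and limma's adjusted p was 0.0628. Without single arrays it ranged from -1.18 to -0.84 and passed in all 9 refits. The refits without a ventral array could not move the size of this difference. Primary mouth over ventral was 2.17 and 2.03 within the batches, and anterior dorsal over ventral 3.35 and 2.998.

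The 2 genes known from the differentiated eye were high in anterior dorsal tissue. The retinal homeobox gene vsx1.L (gene ID 779073) read 23.8, 28.8 and 15.8 in primary mouth, 76.9, 148 and 62.0 on the anterior dorsal arrays and 12.1, 10.2 and 5.74 on the ventral arrays. The 3 tissues did not overlap, although anterior dorsal 2 stood well above the other anterior dorsal arrays. The fold change in primary mouth over anterior dorsal tissue was -1.46 ± 0.25 (SE, limma adjusted p = 0.00249), and anterior dorsal over ventral was 2.07 ± 0.25 (adjusted p = 7.73e-05). The smaller step of primary mouth over ventral was 0.61 ± 0.25 (adjusted p = 0.140), and both tissues lay in or below the range of the EGFP control. With 1 added in place of 16, primary mouth over ventral was 1.22 and anterior dorsal over ventral 3.18. Without anterior dorsal 2 the difference of primary mouth from anterior dorsal tissue was -1.15 (adjusted p = 0.00629).

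The opsin gene rgr.S (gene ID 494721) was at the bottom of the scale outside anterior dorsal tissue. It read 1.76, 2.82 and 1.75 in primary mouth, 95.3, 138 and 147 on the anterior dorsal arrays and 1.60, 9.66 and 4.32 on the ventral arrays. The anterior dorsal arrays lay far above all others, and primary mouth and ventral arrays overlapped. All primary mouth signals stood at or below the 6.04th percentile of their arrays, and the anterior dorsal signals at the 62.3rd to 71.5th. For primary mouth over anterior dorsal tissue the change was -2.96 ± 0.19 (SE, limma adjusted p = 4.42e-06). Anterior dorsal over ventral was 2.75 ± 0.19 (adjusted p = 8.37e-07). With 1 added in place of 16 these were -5.36 and 4.57, so the direction and the call are given here and not a size. Between primary mouth and ventral tissue, both at the bottom of the scale, the difference was -0.21 (95% interval -0.62 to 0.20, adjusted p = 0.511).

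Within batches, primary mouth over anterior dorsal was -1.14 in the high-ratio and -1.83 in the low-ratio batch for vsx1.L, and -2.61 and -3.16 for rgr.S. Anterior dorsal over ventral was 1.73 and 2.24 for vsx1.L and 2.66 and 2.80 for rgr.S. All 4 pairs kept one sign. Primary mouth over ventral was 0.59 and 0.41 for vsx1.L and 0.06 and -0.36 for rgr.S.

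**Figure D2:**
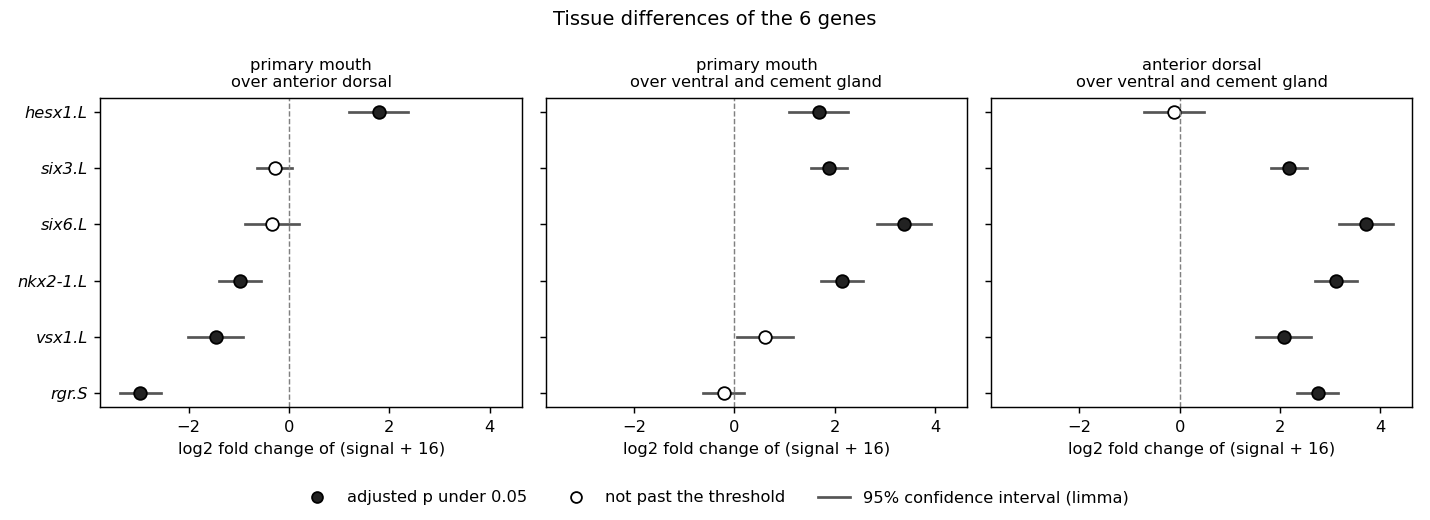
Log2 fold change of (signal + 16) for the 6 genes in the 3 tissue comparisons, with limma's 95% confidence interval. Filled points passed an adjusted p of 0.05. In primary mouth over anterior dorsal tissue the genes run from 1.79 for hesx1.L to -2.96 for rgr.S, and in anterior dorsal over ventral tissue all but hesx1.L lie between 2.07 and 3.72.

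Read across the plot of tissue differences, the 6 genes had 4 kinds of distribution. The first was hesx1.L, highest in primary mouth. Second came six3.L and six6.L, high in primary mouth and anterior dorsal tissue without a call between these tissues. Then came nkx2-1.L at an intermediate level in primary mouth, and last vsx1.L and rgr.S, low in both primary mouth and ventral tissue. These kinds follow the calls, and genes were not tested against each other. In primary mouth over anterior dorsal tissue the 95% intervals of six6.L (-0.87 to 0.21) and nkx2-1.L (-1.39 to -0.56) overlap. Over anterior dorsal tissue, primary mouth had 1 of the 6 higher and 3 lower, where 4.68% of all probe sets were higher and 4.87% lower. Over ventral tissue it had 4 higher and 0 lower, where 14.5% passed and 10.1% were lower. Anterior dorsal over ventral tissue had 5 higher and 0 lower, where 24.7% passed and 14.1% were lower. These comparisons share arrays and so are not independent of each other. Testing asked for 3 or more arrays on which a probe set exceeded that array's 40th percentile. For hesx1.L those were the 3 primary mouth arrays alone, and for vsx1.L and rgr.S the 3 anterior dorsal arrays alone, so that each of these had to differ somewhere and no count over the 6 genes is read as support. The genes six3.L and nkx2-1.L passed on 6 arrays, all of primary mouth and anterior dorsal tissue, and six6.L on 7, of which 1 was ventral. They too were tested mainly through the tissues where they were high.

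The other copies of 3 of these genes are on the array, on 4 probe sets. For hesx1.S (gene ID 378542) signals were 25.7, 50.1 and 60.7 in primary mouth, 5.28, 9.94 and 7.41 on the anterior dorsal arrays and 1.41, 6.46 and 2.30 on the ventral arrays. The primary mouth arrays again lay above the 6 others. On primary mouth 2 the EGFP control, at 53.9, read above hesx1.S, whereas on 1a and 3 it read 10.8 and 21.8. Taken over all arrays, the EGFP range covers the hesx1.S signals of both primary mouth 1a and 2. The hesx1.S probe set did not pass the filter. With all 15491 probe sets tested, of which 6.57% and 9.44% passed in these comparisons, hesx1.S was higher in primary mouth by 1.34 ± 0.21 over anterior dorsal and by 1.63 ± 0.21 over ventral tissue (SE, limma adjusted p = 0.00171 and 0.000368). With both flanking tissues in the range of the reporter controls, these sizes are fitted values and no measured ratios. Because probe sets may detect both copies, hesx1.S and hesx1.L are not counted as 2 independent observations.

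The probe set of six6.S (gene ID 373784) read 38.5, 55.8 and 74.9 in primary mouth, 36.8, 103 and 63.2 on the anterior dorsal arrays and 15.5, 15.8 and 3.06 on the ventral arrays. Primary mouth and anterior dorsal arrays overlapped, and both lay above the ventral arrays. In primary mouth over anterior dorsal tissue the change was -0.16 (95% interval -0.83 to 0.50, limma adjusted p = 0.800). The changes over ventral tissue were 1.41 ± 0.30 in primary mouth and 1.57 ± 0.30 for the anterior dorsal samples (SE, adjusted p = 0.00808 and 0.00237), with the same order of tissues as six6.L.

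The 2 probe sets of six3.S (gene ID 398146) were at the bottom of the scale. One read 4.45 to 8.36 in primary mouth, 12.8 to 17.4 in anterior dorsal tissue and 2.09 to 18.1 in ventral, and the other 5.78 to 9.23 in primary mouth, 1.25 to 8.81 in anterior dorsal tissue and 1.75 to 6.87 in ventral. None of the 9 arrays put either above its 40th percentile. These probe sets therefore give no reading of the six3.S copy beside six3.L. The copies vsx1.S and rgr.L, and any other copy of nkx2-1, were not analysed here.

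**Figure D3:**
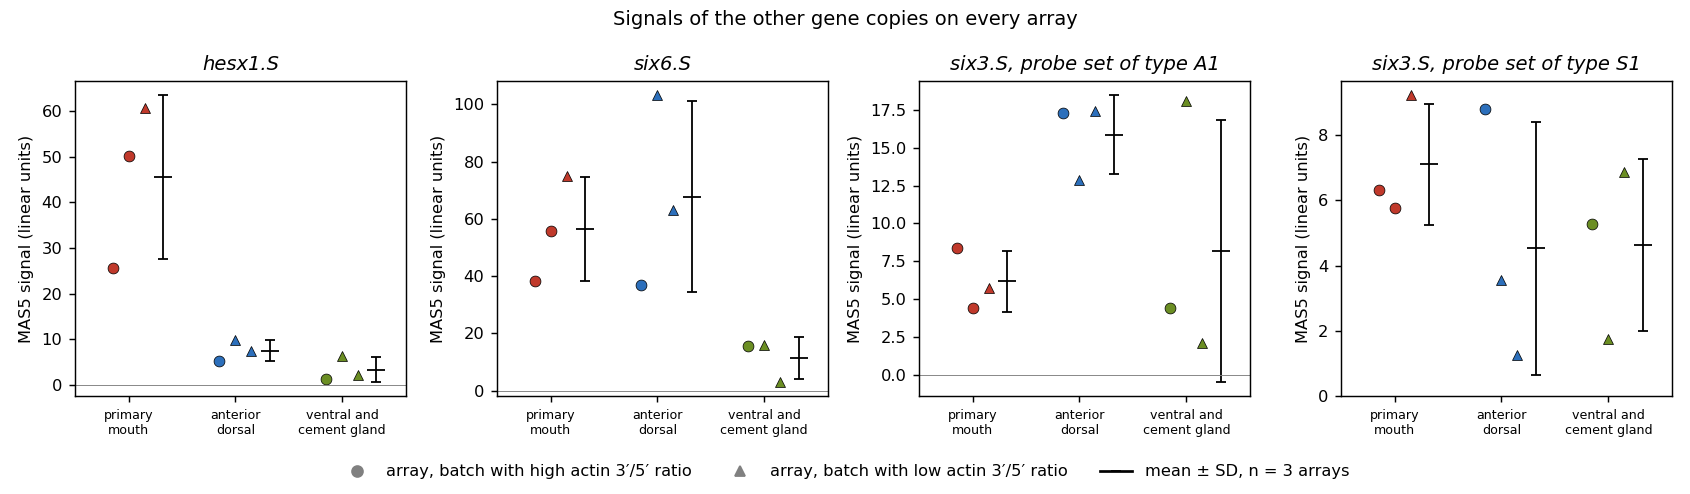
MAS5 signal (linear units) on every array of the 4 probe sets annotated with the other copy of a gene, by tissue, with the mean ± SD (n = 3) and the batch as point shape. The hesx1.S arrays of primary mouth (25.7 to 60.7) lie above all others, six6.S is high in primary mouth and anterior dorsal tissue, and no six3.S signal exceeds 18.1.

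Other genes of the same territories were counted from lists, with 1 probe set standing for a symbol. Both copies of a gene are counted where tested. This held for tbx3, dlx2 and otx2 in the hypothalamus list and tbx3, crx and otx2 in the optic list. Both lists hold the copies of tbx3 and otx2 and foxd1.L, and sox2.L is in the pituitary, optic and forebrain lists. The lists are therefore not independent. A gene low in all but a single tissue could enter only through its arrays, so no list count is read as support. Of 12 tested genes of the hypothalamus list, primary mouth had 2 higher and 5 lower than anterior dorsal tissue and 5 that did not pass (median -0.06 beside -0.01 over all probe sets). Over all probe sets 4.68% were higher and 4.87% lower in this comparison. The forebrain zinc finger gene fezf2.L averaged 73.8 in primary mouth, 387 in anterior dorsal tissue and 11.5 in ventral, an order like that of nkx2-1.L, and fell by 2.16 in primary mouth against anterior dorsal tissue (limma adjusted p = 3.67e-05). The homeobox gene otx2.L averaged 191 in primary mouth, 435 in anterior dorsal tissue and 96.4 in ventral, and fell by 1.13 in the same comparison (adjusted p = 0.000981). The 2 genes that rose were the copies of dlx2, by 1.27 and 1.87, which are also genes of cranial neural crest.

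Against ventral tissue, 5 of the 12 hypothalamus genes were higher and 3 lower in primary mouth, and 6 were higher and 5 lower in anterior dorsal tissue (medians 0.37 and 0.34 beside 0.06 and 0.04 over all probe sets). Of all probe sets 4.42% were higher and 10.1% lower in primary mouth over ventral, and 10.5% higher and 14.1% lower in anterior dorsal over ventral. The ventral neural tube homeobox gene nkx2-2.S averaged 34.6 in primary mouth, 69.7 in anterior dorsal tissue and 5.04 in ventral, and was higher than ventral by 1.26 in primary mouth and by 2.02 in the anterior dorsal samples (limma adjusted p = 0.000202 and 2.12e-06). The signalling gene shh.L, whose product induces Nkx2-1 in the vertebrate forebrain, averaged 214 in primary mouth, 122 in anterior dorsal tissue and 49.2 in ventral. It was higher than ventral by 1.72 in primary mouth and by 1.09 in the anterior dorsal samples (adjusted p = 0.00198 and 0.0169). Primary mouth over anterior dorsal did not pass for shh.L (0.63, adjusted p = 0.235). Among the lower genes the T-box gene tbx3.S averaged 34.6 in primary mouth, 41.3 in anterior dorsal tissue and 303 in ventral.

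Pituitary genes went both ways in the comparison of primary mouth with anterior dorsal tissue. Of 6 tested 2 were higher, 3 lower and 1 did not pass (median -0.67), beside 4.68% higher and 4.87% lower over all probe sets. The 2 higher ones were homeobox genes of oral ectoderm, pituitary and lens. Signals of pitx1.L averaged 213 in primary mouth, 28.5 in anterior dorsal tissue and 143 in ventral, and those of pitx3.L 117 in primary mouth, 19.2 in anterior dorsal tissue and 12.8 in ventral. The gene pitx1.L is also in the cement gland list. In primary mouth over ventral tissue pitx1.L did not pass (0.55, limma adjusted p = 0.0924) and pitx3.L was higher (2.12, adjusted p = 0.000289). The lower ones, sox3.S (-2.16), neurod1.L (-1.87) and sox2.L (-1.20), are known throughout the neural plate or in neurons as well as in the pituitary. Over ventral tissue the list had 2 genes higher and 1 lower in primary mouth and 3 higher and 2 lower in anterior dorsal tissue (medians 0.61 and 1.10), beside 4.42% higher and 10.1% lower, and 10.5% higher and 14.1% lower, over all probe sets.

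Most tested genes of the optic field and retina list fell in primary mouth. Of 15 tested 11 were lower than in anterior dorsal tissue, 0 higher (1 at an unadjusted p under 0.05) and 4 did not pass, with a median of -1.09. Over all probe sets 4.87% were lower and 4.68% higher. The list has 26 symbols on the array. Some tested genes were low outside anterior dorsal tissue, such as neurod4.L with means of 15.4 in primary mouth, 57.8 in anterior dorsal tissue and 12.7 in ventral. Such genes entered the tests mainly through their anterior dorsal arrays, so the count of lower genes is not read as support. Beside pax6.L (-2.44) the lower genes included the homeobox gene crx.S (-2.03), the nuclear receptor gene nr2e1.S (-1.62) and the eye field homeobox gene lhx2.L (-1.39). Against ventral tissue 8 were higher and 4 lower in primary mouth, and anterior dorsal tissue had 9 higher and 2 lower (medians 0.54 and 1.47), where the shares over all probe sets were 4.42% and 10.1%, and 10.5% and 14.1%. Signals of lhx2.L averaged 64.3 in primary mouth, 194 in anterior dorsal tissue and 39.2 in ventral. Those of crx.S were 15.7 in primary mouth, 115 in anterior dorsal tissue and 88.8 in ventral. This gene did not pass in anterior dorsal over ventral tissue (0.34, limma adjusted p = 0.282).

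Among genes of the retinoid cycle, in which Rgr acts, 1 fell as rgr.S did. Of 13 on the array 5 were tested. In primary mouth against anterior dorsal tissue 1 was lower, 0 higher (1 at an unadjusted p under 0.05) and 4 did not pass (median 0.07), where 4.87% of all probe sets were lower and 4.68% higher. The lower gene was rlbp1.L, whose product binds retinal in pigment epithelium and glia. It averaged 18.2 in primary mouth, 61.7 in anterior dorsal tissue and 8.57 in ventral, a log2 fold change of -1.22 in primary mouth against anterior dorsal (limma adjusted p = 0.00795). The retinoid isomerase gene rpe65.S had means of 1783 in primary mouth, 1304 in anterior dorsal tissue and 708 in ventral. It did not pass between primary mouth and anterior dorsal tissue (0.42, adjusted p = 0.183) and was higher in primary mouth than in ventral tissue by 1.29 (adjusted p = 0.000426). Pigment cell genes, which could mark the pigment epithelium, had 2 tested members. In primary mouth against anterior dorsal tissue 1 was lower, tyrp1.L (-1.45, limma adjusted p = 0.000116), and 1 did not pass, pmel.S (-0.54, adjusted p = 0.0932). Signals of pmel.S averaged 182 in primary mouth, 270 in anterior dorsal tissue and 137 in ventral. The melanin gene tyrp1.L averaged 12.97 in primary mouth, 63.3 in anterior dorsal tissue and 17.6 in ventral, and summed signals of 3 pigment genes were 152 to 230.4 in primary mouth, 305 to 368 in anterior dorsal tissue and 140.1 to 169.9 in ventral. The part of pigmented eye tissue in the rgr.S signal was not tested.

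Six3 and Hesx1 repress their targets together with Groucho (Tle) proteins, and Six3 and its relatives bind Eya and geminin. The Groucho corepressor list also holds hdac and ncor1 genes, which are not Groucho genes. Its 7 tested members were tle2.L, tle5.L, tle5.S, hdac1.L, hdac1.S, hdac2.S and ncor1.S. Of these 0 passed in either direction between primary mouth and anterior dorsal tissue by limma, where 9.56% of all probe sets passed. At an unadjusted p under 0.05 there were 3 lower and 0 higher in primary mouth, and the smallest adjusted p was 0.0552 (hdac2.S). Against ventral tissue 1 was higher in primary mouth (tle5.L), and anterior dorsal tissue had 4 higher (tle5.L, hdac2.S, tle2.L and hdac1.L). Of all probe sets 4.42% and 10.5% were higher in these comparisons. The short Groucho relative tle5.L averaged 606 in primary mouth, 844 in anterior dorsal tissue and 340.1 in ventral, higher over ventral by 0.80 in the first and 1.27 in the second (adjusted p = 0.00241 and 3.83e-05). Of 3 tested partners of these proteins, the replication inhibitor gmnn.L was higher in anterior dorsal than ventral tissue by 0.64 (adjusted p = 0.0146), and the others passed in no comparison.

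**Figure D4:**
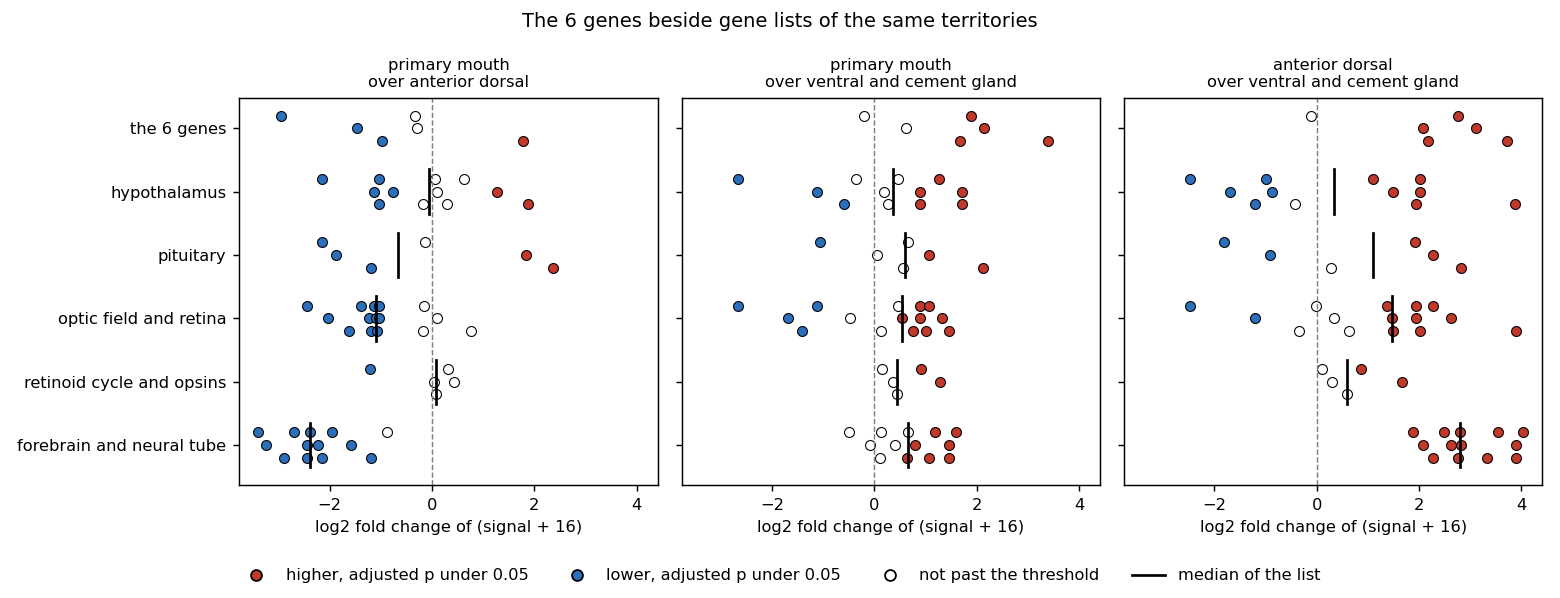
Log2 fold change of (signal + 16) of the 6 genes and of each tested gene of 5 lists, in the 3 tissue comparisons. Filled points passed an adjusted p of 0.05 and vertical bars are list medians. In primary mouth over anterior dorsal tissue the forebrain and neural tube list has its median at -2.38, while six3.L and six6.L lie at -0.29 and -0.33. In primary mouth over ventral tissue the median of that list is 0.66.

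The closest relatives of 2 roles were looked at after their values were seen. Both copies of rax, the retinal homeobox gene of the eye field, read 0.693 to 25.9 over 3 probe sets and 9 arrays, never above the 40th percentile. With all probe sets tested, anterior dorsal over ventral tissue was 0.62 for rax.L (limma adjusted p = 0.0313). For the 2 rax.S probe sets it was 0.63 and 0.74 (adjusted p = 0.0521 and 0.0674). All rax signals lay in the range of the reporter controls and were not read as expression or absence. The Nkx2-1 relative nkx2-4.L read 9.15 to 21.9 in primary mouth, 21.3 to 34.5 in anterior dorsal tissue and 2.59 to 14.2 in ventral. It did not pass the filter either, and its signals too lay in the range of the reporter controls. With all probe sets tested nkx2-4.L was higher in anterior dorsal than ventral tissue by 0.93 ± 0.21 (SE, limma adjusted p = 0.00864). In that comparison 17.6% of probe sets passed.

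For each of the 6 genes, the 3 named genes with the most similar signal over the 9 arrays were taken from 6381 probe sets by Pearson correlation of log2(signal + 16). These correlations largely reflect the 3 tissue levels, since arrays of a tissue share them. Closest to hesx1.L were pitx3.L (r = 0.973), the secreted Wnt antagonist gene frzb.L (0.968) and arhgap45.L (0.961). The matrix protein gene matn4.L came first for both six3.L (0.983) and six6.L (0.989), with mean signals of 64.4 in primary mouth, 64.0 in anterior dorsal tissue and 10.4 in ventral. It was followed by the replication gene cdc6.L (0.981) and kcp.L (0.980) for six3.L, and by the intermediate filament gene vim.S and the lysophosphatidic acid receptor gene lpar4.L (both 0.982) for six6.L. The corepressor relative tle5.L was closest to nkx2-1.L (0.990), before the nucleotide reductase gene rrm1.L and akirin1.L (both 0.987).

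The 2 eye genes had different neighbours. Closest to vsx1.L were insm1.L (r = 0.989), a zinc finger gene of newly formed neurons and endocrine cells, the amino acid transporter gene slc7a5.L (0.988) and cdca7.L (0.967). Closest to rgr.S were the brain creatine kinase gene ckb.L (0.987), gtsf1.L (0.986) and rcvrn.2.L (0.984), annotated as a recoverin, the calcium sensor of photoreceptors. Signals of rcvrn.2.L averaged 3.62 in primary mouth, 41.4 in anterior dorsal tissue and 2.85 in ventral.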

How the data were processed

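The authors deposited linear intensity values, 1 for each probe set on each array, from MAS5 per the submitters' processing notes. Its version and its settings were not given in the sources used here. The table has 15611 probe sets, 120 of them controls. The platform annotation gives 1 symbol for 9304, several for 195 and none for 5992, and 9227 matched the RefSeq gene table of Xenopus_laevis_v10.1 by gene ID, which was used for names only. Probe sets with several symbols were not named.

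Signals were analysed as log2(signal + 16), which understates changes of low genes. The filter kept 10011 probe sets that exceeded an array's 40th percentile (30.9 to 35.8) on 3 or more of the 9. Tissue means were fitted over the 9 arrays together (limma 3.58.1, R 4.3.3, eBayes with trend, 6 residual degrees of freedom), two-sided, with Benjamini-Hochberg adjustment over all tested probe sets and a threshold of 0.05. The code was tested on simulated data. Precision is limited by having 3 arrays for each tissue.

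The 6 genes, the lists and the tests were chosen with earlier results of these data known. Genes named are the 6, their other copies, the 3 most similar genes of each, and up to 4 called genes per list and comparison with the largest change. The genes rax and nkx2-4 fall outside this rule and were chosen after their values were seen. A list gene's probe set is the one with the highest mean. There were 14 lists. Those for lens and placode, epidermis, heart and blood, skeletal muscle and foregut endoderm had 1, 2, 2, 0 and 3 genes higher and 0 lower in primary mouth over anterior dorsal tissue (of 4, 5, 4, 2 and 6 tested), and 1, 0, 1, 0 and 0 higher and 1, 0, 3, 1 and 4 lower than in ventral tissue. In anterior dorsal over ventral tissue they had 0 higher and 2, 1, 4, 1 and 6 lower. Of the 6 cement gland genes tested, which include both copies of ag1 and agr2, 4 were higher and 1 lower in primary mouth over anterior dorsal tissue, and 0 higher and 4 lower than in ventral tissue. Over all probe sets 4.68% were higher and 4.87% lower in primary mouth over anterior dorsal tissue, and 4.42% and 10.1% over ventral tissue. In anterior dorsal over ventral tissue the shares were 10.5% and 14.1%. Genes low in all but 1 tissue could enter only through its arrays, so these counts are not read as support.

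Batches were read from the beta-actin control probe sets. Replicate numbers were checked by correlating deviations from tissue means. Same-numbered anterior dorsal and ventral arrays correlated at 0.510 to 0.676. They also share a batch, so pairing by number and a shared batch cannot be told apart here. Primary mouth 1a and 3 correlated at 0.349 to 0.584 with their namesakes, which share their batch. Primary mouth 2, which does not, correlated at -0.234 and -0.123, so not every pair exceeded 0.1 and the numbers were not taken to pair primary mouth.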

Additional observations from a re-analysis of the deposited data

How the results depend on the processing

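Each change of the 6 genes was refitted under up to 19 alternatives that tested it (another pseudocount, no filter, quantile normalization, no variance trend, only 2 tissues, the replicate block, the batch as a term, each batch alone, and each array left out), and 336 of these refits kept direction and side of the threshold. The refits that did not are all given below. Leaving out an array of the tissue outside a comparison cannot move the fold change of that comparison. Sizes moved with the added constant. With 1 in place of 16, changes over 1.5 times the printed size were those of hesx1.L in primary mouth over anterior dorsal (3.37) and ventral tissue (3.11), rgr.S in primary mouth over anterior dorsal (-5.36) and anterior dorsal over ventral (4.57), nkx2-1.L in primary mouth over ventral (3.25), vsx1.L in anterior dorsal over ventral (3.18), and 3 uncalled ones, vsx1.L (1.22) and rgr.S (-0.78) in primary mouth over ventral and hesx1.L in anterior dorsal over ventral (-0.27). A filter asking for all 9 arrays left 7702 probe sets, none of them one of the 6, so 0 were called in each comparison, against 4 of 6 in both primary mouth comparisons and 5 of 6 in anterior dorsal over ventral tissue. Those 3 counts stayed within 1.5 times otherwise. The only call lost was nkx2-1.L in primary mouth over anterior dorsal tissue within the low-ratio batch (-0.97, adjusted p = 0.0628), and the only call gained was vsx1.L in primary mouth over ventral tissue with the replicate block (0.61, adjusted p = 0.0353). Direction turned in uncalled changes alone. Anterior dorsal over ventral for hesx1.L was -0.11 and became 0.11 in the low-ratio batch, 0.0358 without anterior dorsal 3 and 0.0618 without ventral 1 (leave-one-out range -0.319 to 0.0618), and primary mouth over ventral for rgr.S was -0.21 and became 0.0553 in the high-ratio batch. The causes were not tested.

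Counts over all probe sets moved more. Primary mouth over anterior dorsal had 957 calls, 1654 with the replicate block, 1603 with the batch as a term, 514 in the high-ratio batch, 424 with the strict filter, and 618 and 608 without anterior dorsal 2 or 3. Primary mouth over ventral had 1452, then 2352, 2258, 760 and 842 in the same order, and 955 without ventral 3. Anterior dorsal over ventral had 2469, with 1043 in the high-ratio batch and 1526 with the strict filter. For this pair of tissues the replicate block gave 3333 and changed no call of the 6 genes. Low signals of hesx1, vsx1 and rgr lie where background cannot be told from expression without detection calls.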
